A study of Homo sapiens with 6 samples.

Results

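The kinesin motor genes of A549 cells, a human lung adenocarcinoma line, were followed after depletion of BAP18, a chromatin-associated protein encoded by C17orf49. Members were taken by name, as every listed gene called KIF with a number and an optional letter A to C, or KIFC1, KIFC2 or KIFC3. Of 35474 listed genes, 41 had such a name and 39 held at least 30 counts over the 6 libraries. Just inside this limit were KIF6 with 42 counts and KIF4B with 50, and just outside it were KIF19 with 25 and KIF25 with 24. A549 cultures were transfected with siRNA against BAP18 (siBAP18, 3 libraries) or with a non-specific control siRNA (siCtrl, 3 libraries), and poly(A) RNA was taken 48 h later. All cultures were of 1 cell line and received an siRNA, and the methods do not tell which of 3 BAP18 siRNAs was used here.

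Kinesins are motor proteins that use ATP to walk along microtubules or to take them apart at their ends. In dividing cells, one set builds the spindle, moves the chromosomes and completes cytokinesis. In interphase, another set carries vesicles, organelles and cilium components, usually through light chains or adaptor proteins that choose the cargo. The 39 genes were grouped by these known roles into 13 mitotic, 17 transport and 9 other kinesins. The last group held kinesins of cilia and centrioles, KIF2A, which works both at spindles and in interphase, and members with less well defined motor activity.

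Total counts ranged from 46035635 to 53657450 in siCtrl and from 42094524 to 56548620 in siBAP18. C17orf49, the targeted gene, held 743, 751 and 705 counts in siCtrl and 120, 137 and 108 in siBAP18, a log2 fold change of −2.65. The epithelial markers KRT8, KRT18, KRT19 and EPCAM were all expressed, at 60.8 or more CPM (counts scaled to library size) in every library. PECAM1, an endothelial marker, did not exceed 0.846 CPM and COL1A2, a fibroblast collagen, did not exceed 0.171 CPM, whereas COL1A1 reached 8.60 to 12.8 CPM.

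To show the control regions of the genes described next, the 250 bases before the RefSeq start (GRCh38.p14) were printed for KIF11, KIF14 and KIF4A, which are mitotic kinesins, and for KIF5B and KIF1C, which were the most abundant transport kinesins. Capitals mark a CHR element (TTTGAA) or a CCAAT box, on either strand, so TTCAAA and ATTGG are the same motifs read from the other strand. CHR elements and CCAAT boxes are known from promoters of genes that peak late in the cell cycle. The stretches lie at chr10:92592880-92593129 (plus strand) for KIF11, chr1:200620752-200621001 (minus) for KIF14, chrX:70289854-70290103 (plus) for KIF4A, chr10:32056426-32056675 (minus) for KIF5B and chr17:4997700-4997949 (plus) for KIF1C.
KIF11: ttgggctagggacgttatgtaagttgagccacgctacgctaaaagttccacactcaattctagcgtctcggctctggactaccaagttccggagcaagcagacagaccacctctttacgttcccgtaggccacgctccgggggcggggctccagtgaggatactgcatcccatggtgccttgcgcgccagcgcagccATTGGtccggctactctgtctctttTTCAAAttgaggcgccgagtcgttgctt
KIF14: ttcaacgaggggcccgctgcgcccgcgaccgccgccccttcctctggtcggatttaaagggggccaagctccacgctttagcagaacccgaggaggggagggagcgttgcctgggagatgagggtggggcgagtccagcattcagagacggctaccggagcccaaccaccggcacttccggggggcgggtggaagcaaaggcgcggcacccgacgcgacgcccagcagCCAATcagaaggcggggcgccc
KIF4A: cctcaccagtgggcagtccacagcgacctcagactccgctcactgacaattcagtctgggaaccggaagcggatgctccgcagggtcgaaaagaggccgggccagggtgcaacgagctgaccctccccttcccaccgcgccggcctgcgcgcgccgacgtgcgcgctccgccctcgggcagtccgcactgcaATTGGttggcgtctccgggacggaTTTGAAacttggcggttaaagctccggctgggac
KIF5B: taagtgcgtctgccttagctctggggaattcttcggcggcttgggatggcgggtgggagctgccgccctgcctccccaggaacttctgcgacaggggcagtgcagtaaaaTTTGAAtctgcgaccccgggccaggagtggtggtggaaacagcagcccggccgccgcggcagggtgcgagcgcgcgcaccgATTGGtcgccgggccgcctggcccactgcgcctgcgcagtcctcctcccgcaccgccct
KIF1C: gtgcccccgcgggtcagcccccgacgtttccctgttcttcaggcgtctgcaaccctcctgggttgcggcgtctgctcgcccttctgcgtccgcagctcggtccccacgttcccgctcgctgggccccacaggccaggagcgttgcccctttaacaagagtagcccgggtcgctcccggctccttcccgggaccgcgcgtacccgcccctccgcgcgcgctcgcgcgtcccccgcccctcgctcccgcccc
KIF11 and KIF4A carried a CCAAT box and then a CHR element close before the start. KIF14 carried the CCAAT box before its start and a CHR element at position 2 after it, beyond the printed stretch. KIF5B had both motifs, with the CHR element farther away at position −140. KIF1C had neither.

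Promoter windows of 250 bases before to 50 after the start were matched for 32 of the 39 genes. No window was matched for the transport kinesins KIF21B, KIF5A, KIFC3, KIF13B and KIFC2, or for KIF26B and KIF27. CHR letters were found in 10 of 13 mitotic kinesins and in 1 of 12 transport kinesins, KIF5B, against 15.4% of 27305 promoters in the table. The mitotic genes with CHR letters include KIF4B, which had low counts. CCAAT letters were found in 11 of 13 mitotic kinesins and in 3 of 12 transport kinesins (KIF1B, KIF5B and KIF3B), against 35.7% of all promoters. Both motifs together were present in 9 mitotic kinesins and 1 transport kinesin, against 6.08% of all promoters. KIF2C had neither motif, KIF22 and KIF20A had a CCAAT box alone, and KIF15 had a CHR element alone. An E2F motif, searched as TTTCCCGC, TTTGGCGC or TTTCGCGC on both strands, stood in KIF15 only among the mitotic kinesins and in 2.79% of all promoters. None of the 7 other kinesins with a window had CHR letters, and KIF6, KIF24 and KIF12 had CCAAT letters. A match is a run of letters and was not tested for binding. The RefSeq start lay over 1000 bases from the outermost start in the deposited annotation for KIF5C, KIF1A and KIF24. It lay a shorter way after that outermost start for KIF9 (652 bases), KIF20A (393), KIFC1 (287), KIF21A (270) and KIF3C (252). The windows of these genes do not reach back to the outermost start. For KIF1B, KIF11, KIF26A, KIF12 and KIF18B the outermost start lay past the other end of the window. Motif letters near such starts could be missed.

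**Figure D1:**
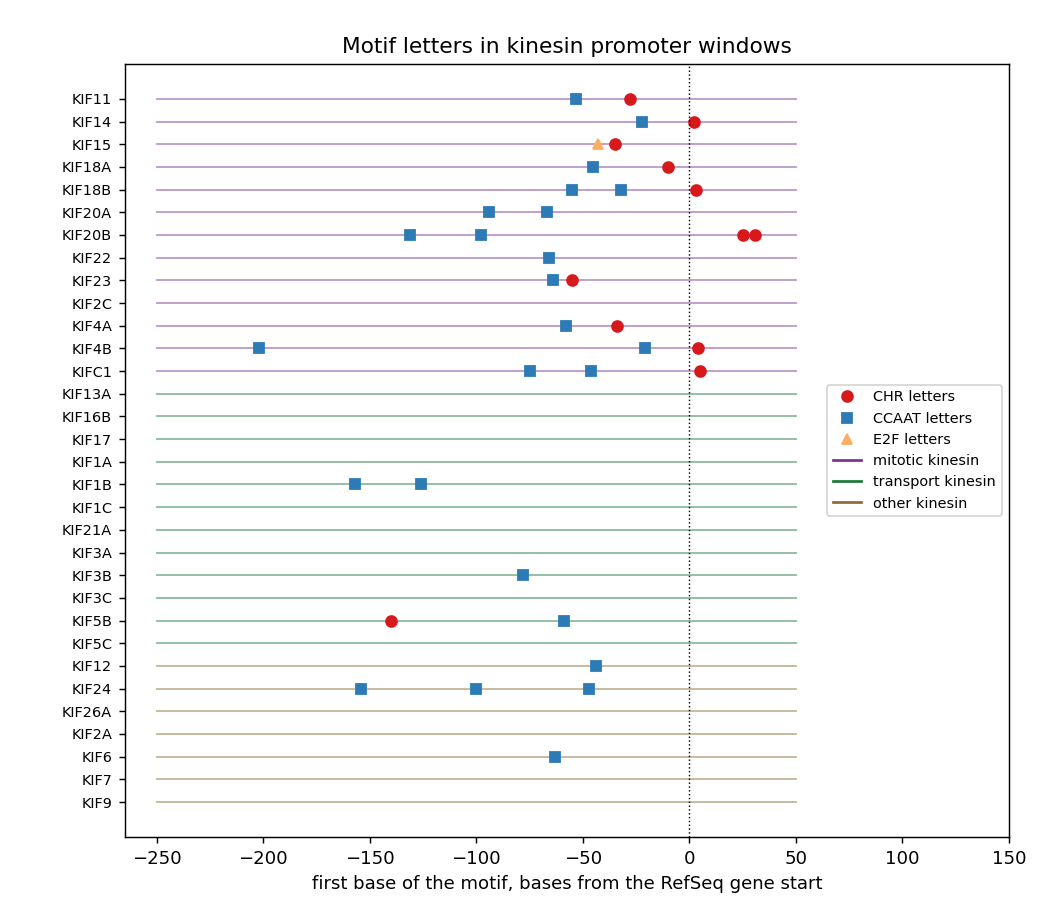
Position of motif letters in the promoter windows of the 32 matched kinesin genes, in bases from the RefSeq start (dotted line), with 1 horizontal line per gene colored by class. Circles (CHR) lie on 10 of 13 mitotic lines and on the KIF5B line of the transport kinesins.

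The question was which kinesins changed after BAP18 depletion, and whether those of the spindle and those of transport did so alike. Counts of 37 of the 39 genes were high enough for the quasi-likelihood test of edgeR, with p-values adjusted over 20776 genes by Benjamini and Hochberg's method. At an adjusted p under 0.05, 25 kinesins were lower and 4 were higher in siBAP18, while 25.1% of all genes tested were lower and 24.5% were higher. All 12 mitotic kinesins tested were lower. The 17 transport kinesins were divided, with 8 lower, 3 higher and 6 that did not pass, and the other kinesins had 5 lower, 1 higher (KIF9) and 2 that did not pass. The median log2 fold change was −0.75 for mitotic, −0.19 for transport and −0.43 for other kinesins, beside 0.0010 for all genes tested. No test of the difference between these classes was made. In bulk RNA, fewer cells in a given cell cycle phase and less RNA per cell cannot be told apart.

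With a change of over 2-fold added, 7 kinesins were lower (KIF14, KIF11, KIF12, KIF15, KIF5B, KIF23 and KIF20A), against 3.74% of all genes. No kinesin was higher by this limit, against 4.72% of all genes, and KIF17 came nearest with a log2 fold change of 0.98. Values of the 3 siBAP18 libraries did not overlap those of the 3 siCtrl libraries for 27 of 37 kinesins, against 56.6% of all genes. These were all 12 mitotic, 9 of 17 transport and 6 of 8 other kinesins tested.

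**Figure D2:**
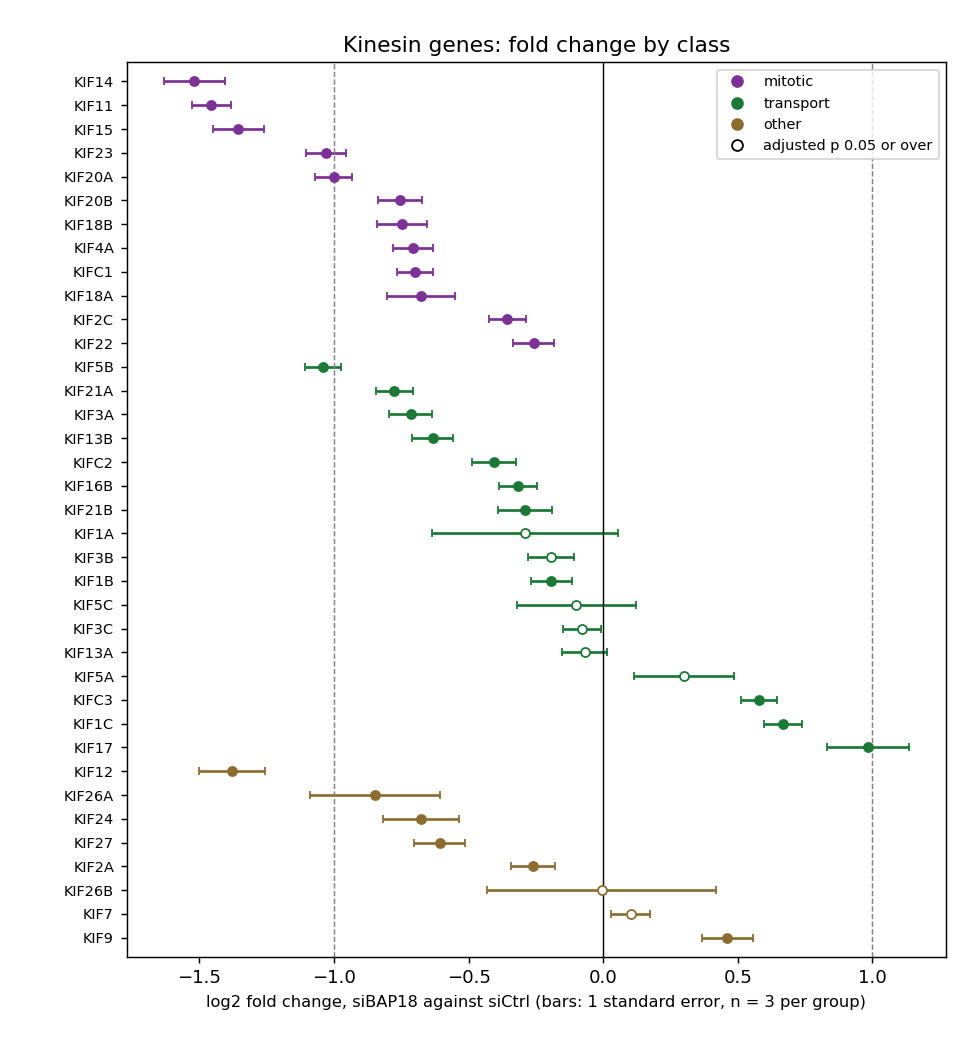
Log2 fold change of siBAP18 against siCtrl for the 37 kinesin genes tested, with bars of 1 standard error (n = 3 per group), by class. Open circles did not pass an adjusted p of 0.05 and dashed lines mark a 2-fold change. All 12 mitotic kinesins lie left of 0, from −1.52 to −0.26, while transport kinesins spread from −1.04 to 0.98.

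The motors that set up the bipolar spindle were all lower, KIF11 and KIF15 by over 2-fold and KIFC1 by less. KIF11, the kinesin-5 that pushes spindle poles apart, lies at chr10:92593286-92655395 on the plus strand. Its level was 42.7, 43.1 and 45.5 CPM in siCtrl replicates 1, 2 and 3 and 16.5, 16.1 and 15.2 CPM in siBAP18. The highest siBAP18 library was thus well below the lowest siCtrl library, with a log2 fold change of −1.46 (SE 0.0728, adjusted p = 2.42e-14). KIF15, a kinesin-12 that can keep the spindle bipolar beside KIF11 (chr3:44761717-44873376, plus strand), measured 14.7, 15.0 and 15.7 CPM in siCtrl and 6.41, 5.89 and 5.37 CPM in siBAP18. The groups were far apart, with a log2 fold change of −1.36 (SE 0.0944, adjusted p = 1.15e-11). KIFC1, a minus-end-directed motor that bundles spindle microtubules and gathers extra centrosomes, had the highest level per length of the mitotic kinesins in siCtrl, and came after KIF22 in siBAP18. Its RPKM, the count relative to exon length and library size, was 17.4, 17.9 and 18.2 in siCtrl and 10.9, 11.2 and 10.9 in siBAP18. The siBAP18 libraries lay close together and below every siCtrl library, and the log2 fold change was −0.70 (SE 0.0670, adjusted p = 3.37e-09). RPL12P1, which shares 12.7% of the KIFC1 exon bases on the opposite strand, held 7 to 12 counts a library. The promoter stretch printed for KIF11 and the window of KIFC1 hold both motifs, while that of KIF15 lacks the CCAAT letters.

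The motors of the central spindle and of cytokinesis were also lower. KIF14, which works at the midbody (chr1:200551497-200620734, minus strand), had 13.04, 11.8 and 15.2 CPM in siCtrl and 4.81, 5.10 and 3.94 CPM in siBAP18. Its log2 fold change was −1.52 (SE 0.113, adjusted p = 3.80e-11), with no overlap. This was the largest of the 37 changes in this fit, but KIF11 changed more without siCtrl replicate 3 (−1.43 against −1.42) and under limma on log2(RPKM + 0.1) (−1.43 against −1.39) or log2(RPKM + 1) (−1.22 against −0.79). KIF23, the motor subunit of centralspindlin (chr15:69414246-69448427, plus strand), had 69.6, 68.3 and 69.2 CPM in siCtrl and 34.7, 36.7 and 29.8 CPM in siBAP18. The siCtrl libraries differed little among themselves, and all 3 siBAP18 libraries were lower, with siBAP18 replicate 3 the lowest (log2 fold change −1.03, SE 0.0750, adjusted p = 2.52e-11). KIF20A, which brings the chromosomal passenger complex to the central spindle (chr5:138178719-138187715, plus strand), had 60.7, 59.4 and 59.7 CPM in siCtrl and 30.5, 31.4 and 27.8 CPM in siBAP18. Its log2 fold change of −1.001 (SE 0.0699, adjusted p = 1.20e-11) lay at the 2-fold limit, and the groups did not overlap. KIF20B, the remaining kinesin-6, which acts late in cytokinesis, was lower by a log2 fold change of −0.75 (adjusted p = 3.18e-08). All 3 kinesin-6 genes were thus lower.

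The motors on chromosomes and at microtubule ends were lower as well, none of them by over 2-fold. KIF4A, a chromokinesin that works with PRC1 and whose promoter is printed above, fell from 58.2, 62.3 and 58.5 CPM to 37.3, 39.7 and 32.5 CPM (log2 fold change −0.71, adjusted p = 2.04e-08). KIF22, the other chromokinesin tested, had RPKM values of 14.2, 13.8 and 13.1 in siCtrl and 11.6, 10.6 and 12.3 in siBAP18. Its groups did not overlap, but its log2 fold change of −0.26 (SE 0.0754, adjusted p = 0.00606) was the smallest of the mitotic class. KIF22 shares 13.01% of its exon bases with AC009133.21 on the opposite strand, whose log2 fold change was −0.27 (adjusted p = 0.122). KIF2C, which takes microtubules apart at centromeres and so corrects wrong attachments, had RPKM values of 13.4, 13.7 and 14.6 in siCtrl and 11.2, 10.6 and 10.8 in siBAP18. Every siBAP18 library was below every siCtrl library, with a log2 fold change of −0.36 (SE 0.0696, adjusted p = 1.32e-04). The kinesin-8 genes KIF18A, which limits chromosome oscillation, and KIF18B, which shortens astral microtubules, had log2 fold changes of −0.68 (adjusted p = 8.58e-05) and −0.75 (adjusted p = 2.30e-07). The 3 mitotic kinesins whose window had no CHR letters were KIF2C, KIF22 and KIF20A, with log2 fold changes of −0.36, −0.26 and −1.001. The KIF20A window does not reach the outermost start in the deposited annotation. Whether CHR letters go with the size of the change was not tested. KIF4B, a close copy of KIF4A, held 8, 12 and 12 counts in siCtrl and 8, 6 and 4 in siBAP18, and was not tested. Reads of the pair may be split between them, so its counts are uncertain.

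**Figure D3:**
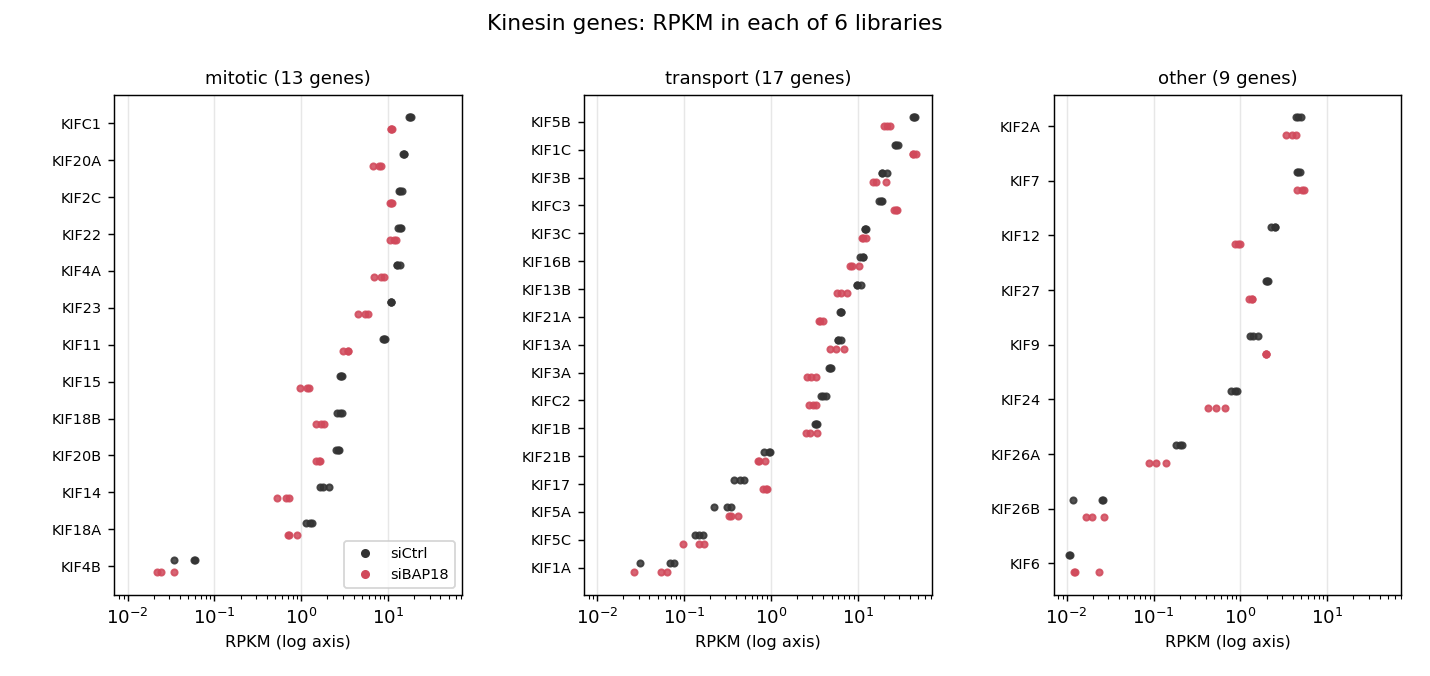
RPKM of the 39 kinesin genes in each of the 6 libraries on a log axis, with 1 point per library, dark for siCtrl and red for siBAP18, by class and ordered by level in siCtrl. A library at 0 (KIF6 in siCtrl replicate 1) is not drawn. The point groups of all 12 mitotic kinesins tested are apart, while those of 8 transport kinesins overlap.

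Among transport kinesins, KIF5B was the most abundant in siCtrl and KIF1C in siBAP18. KIF5B, the ubiquitous heavy chain of conventional kinesin, carries mitochondria, lysosomes and vesicles (chr10:32009010-32056431, minus strand). Its RPKM was 44.8, 43.2 and 46.0 in siCtrl and 21.5, 23.6 and 20.3 in siBAP18. It went from the first to the third place among the kinesins, with a log2 fold change of −1.04 (SE 0.0669, adjusted p = 2.78e-12) and no overlap. KIF1C, a kinesin-3 that carries vesicles and integrins to the cell edge (chr17:4997948-5028401, plus strand), had RPKM values of 27.2, 27.3 and 28.9 in siCtrl and 42.9, 42.8 and 47.0 in siBAP18. All siBAP18 libraries were above all siCtrl libraries, with a log2 fold change of 0.67 (SE 0.0712, adjusted p = 2.10e-08). The ratio of KIF1C to KIF5B RPKM was 0.608, 0.631 and 0.628 in siCtrl and 1.99, 1.81 and 2.31 in siBAP18, or 0.622 ± 0.0128 against 2.04 ± 0.251 (SD, n = 3 each). KIF5B and KIF1C differed in every library, and their order was opposite in the 2 groups.

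KIFC3, a minus-end-directed motor of cell junctions and the Golgi, was the other abundant kinesin that was higher. Its RPKM rose from 17.7, 18.5 and 18.8 to 28.0, 26.4 and 28.1, with a log2 fold change of 0.58 (SE 0.0679, adjusted p = 9.81e-08) and no overlap. KIF17, a kinesin-2 of cilia and dendrites, was the third transport kinesin that was higher, at a low level of 1.97, 2.15 and 1.71 CPM in siCtrl and 3.58, 3.82 and 4.17 CPM in siBAP18. The lowest siBAP18 value was above the highest siCtrl value, and the log2 fold change was 0.98 (SE 0.152, adjusted p = 6.92e-06).

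The kinesin-2 subunits did not move alike. KIF3A, which pairs with KIF3B or KIF3C, fell from 32.4, 33.3 and 33.1 CPM to 17.8, 22.0 and 20.5 CPM, without overlap (log2 fold change −0.72, adjusted p = 3.66e-08). KIF3B, its main partner, had RPKM values of 19.1, 21.8 and 19.1 in siCtrl and 16.3, 21.4 and 15.0 in siBAP18. Replicate 2 was the highest in both groups, the groups overlapped, and the log2 fold change of −0.19 (unadjusted 95% interval −0.36 to −0.03) had an adjusted p of 0.0604. Without siBAP18 replicate 2 its log2 fold change was −0.33 (adjusted p = 6.40e-05), and with the replicate number as a block it was −0.20 (adjusted p = 0.00549). KIF3C changed by −0.08 in log2 (adjusted p = 0.378), and by −0.15 (adjusted p = 0.0276) without siBAP18 replicate 3. KIFAP3, which binds this motor to its cargo, was lower, with a log2 fold change of −0.54 (adjusted p = 1.12e-05).

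In the kinesin-3 and kinesin-4 families, several transport members were lower. KIF21A, which regulates microtubule growth at the cell edge, gave a log2 fold change of −0.78 (adjusted p = 5.57e-10), and KIF13B, which carries membrane proteins and binds DLG1, had −0.63 (adjusted p = 1.25e-07). KIFC2, a minus-end-directed kinesin-14, and KIF16B, which carries early endosomes, had −0.41 (adjusted p = 1.87e-04) and −0.32 (adjusted p = 5.45e-04). KIFC2 shares 17.8% of its exon bases with FOXH1 on the opposite strand, whose log2 fold change was −0.35 (adjusted p = 0.0702). KIF21B and KIF1B, which carries mitochondria and synaptic vesicle precursors, passed with −0.29 (adjusted p = 0.0194) and −0.19 (adjusted p = 0.0393), although the groups overlapped for both. KIF1B no longer passed when any library other than siBAP18 replicate 2 was left out (adjusted p from 0.0642 to 0.169), and KIF21B did not pass without siCtrl replicate 2 or 3 or siBAP18 replicate 1 or 2 (adjusted p from 0.0694 to 0.0923).

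Of the transport kinesins that did not pass, KIF13A, which carries recycling endosomes and melanosome cargo, had a log2 fold change of −0.07 (95% interval −0.23 to 0.10). Without siBAP18 replicate 2 this became −0.20 (adjusted p = 0.0156), and without siBAP18 replicate 3 it was 0.03. The neuronal motors KIF5A, KIF5C and KIF1A were near the lower end of detection, at mean RPKM values of 0.296, 0.150 and 0.0592 in siCtrl. Their log2 fold changes were 0.30 (95% interval −0.06 to 0.66), −0.10 (−0.53 to 0.33) and −0.29 (−0.97 to 0.39), and each interval spans 0. siBAP18 replicate 2 was the highest siBAP18 library for 12 of 17 transport kinesins, and for 5 of 12 mitotic kinesins. The median coefficient of variation over the 37 kinesins was 4.73% in siCtrl and 8.91% in siBAP18.

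Summed over the 39 genes, kinesin RPKM was 292.2 ± 4.61 in siCtrl and 236.3 ± 9.24 in siBAP18 (SD, n = 3 each). The mitotic sum went from 104.9 ± 1.12 to 63.5 ± 2.61, and the transport sum from 171.0 ± 3.14 to 159.1 ± 6.51. Mitotic kinesins made up 36.1%, 35.8% and 35.8% of kinesin RPKM in siCtrl, and 27.7%, 26.4% and 26.5% in siBAP18. Their share was lower in all siBAP18 libraries, and the transport share went from 58.5% ± 0.165 to 67.3% ± 0.915. KIF5B alone went from 15.3% to 9.23% of kinesin RPKM, whereas KIF1C went from 9.51% to 18.8% and KIFC3 from 6.28% to 11.6%. Transport kinesins had longer exon models than mitotic kinesins, with medians of 8580 and 4661.5 bases, which RPKM divides out.

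**Figure D4:**
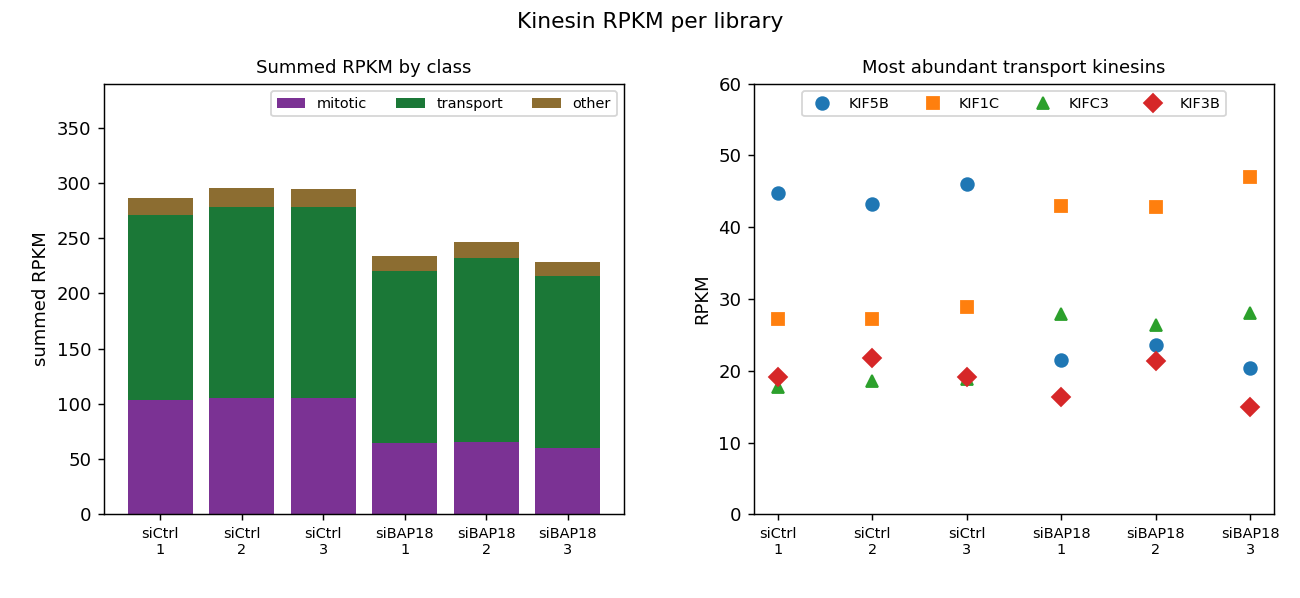
Left, summed RPKM of mitotic, transport and other kinesins in each library (bars from 0). Right, RPKM of the 4 most abundant transport kinesins in each library. The mitotic segment is smaller in all 3 siBAP18 libraries, and KIF1C lies above KIF5B in siBAP18 only.

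The other kinesins were mostly of low level. KIF12, a kinesin-12 known from kidney and liver epithelium, had RPKM values of 2.48, 2.23 and 2.53 in siCtrl and 0.996, 0.868 and 0.934 in siBAP18. It was lower in every siBAP18 library, with a log2 fold change of −1.38 (SE 0.124, adjusted p = 1.15e-09), the only member of this class past 2-fold. KIF2A, which depolymerizes microtubules at spindle poles and in interphase, had RPKM values of 4.38, 4.95 and 4.57 in siCtrl and 3.96, 4.35 and 3.31 in siBAP18. The groups did not overlap but lay close (log2 fold change −0.26, adjusted p = 0.01001), and without siCtrl replicate 2 the adjusted p was 0.0674. KIF7, which regulates Hedgehog signaling at the tip of the primary cilium, had RPKM values of 4.58, 4.80 and 4.51 in siCtrl and 5.12, 5.37 and 4.47 in siBAP18. Its groups overlapped (log2 fold change 0.10, adjusted p = 0.265), and 11.8% of its exon bases are shared with TICRR on the opposite strand, whose log2 fold change was −0.94.

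KIF27, a paralog of KIF7, and KIF24, which acts at the mother centriole against early cilium formation, had log2 fold changes of −0.61 (adjusted p = 7.35e-06) and −0.68 (adjusted p = 2.62e-04). KIF26A, an atypical kinesin, had −0.85 (adjusted p = 0.00494) at 0.1995 RPKM in siCtrl, and KIF26B, at 0.0211 RPKM, had −0.0052 (adjusted p = 0.992). KIF9, a kinesin of motile cilia, was higher, with RPKM values of 1.27, 1.62 and 1.42 in siCtrl and 1.98, 1.99 and 1.97 in siBAP18. All siBAP18 libraries exceeded all siCtrl libraries (log2 fold change 0.46, SE 0.0963, adjusted p = 2.75e-04). KIF9 shares 14.9% of its exon bases with KIF9-AS1 on the opposite strand, whose log2 fold change was 0.52 (adjusted p = 0.111). KIF6 was not tested, with counts of 0, 6 and 6 in siCtrl, where a count of 0 allows up to 3, and 8, 16 and 6 in siBAP18.

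The partners of the spindle motors were lower in part. Of 21 spindle partners, 16 were lower, none was higher and 5 did not pass, against 25.1% lower and 24.5% higher among all genes. The median log2 fold change of these partners was −0.46. Those with the smallest adjusted p were ANLN, a cytokinetic ring scaffold (−1.41, adjusted p = 2.92e-14), ECT2, the activator of RhoA at the division site (−1.10, adjusted p = 1.50e-12), CENPE, a kinesin-7 of kinetochores whose symbol falls outside the name rule (−1.38, adjusted p = 3.02e-12), and NUSAP1, a spindle microtubule bundler (−1.07, adjusted p = 1.35e-11). PRC1, which works with KIF4A, had −0.59 (adjusted p = 1.07e-07), and RACGAP1, which forms centralspindlin with KIF23, had −0.32 (adjusted p = 0.00146). Of the passenger complex carried by KIF20A, CDCA8 and INCENP were lower, with −0.46 (adjusted p = 8.02e-05) and −0.22 (adjusted p = 0.00632). AURKB and BIRC5 of the same complex did not pass, with −0.15 (adjusted p = 0.105) and −0.09 (adjusted p = 0.306).

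Cell cycle markers were lower beside the mitotic kinesins. Of 14 markers, 11 were lower, none was higher and 3 did not pass, against 25.1% lower and 24.5% higher among all genes. The median log2 fold change of these markers was −0.79. Their summed level ranged from 1292 to 1311 CPM in siCtrl and from 673.4 to 714.6 CPM in siBAP18, and none was at 0. TOP2A, a topoisomerase of dividing cells, had −1.31 (adjusted p = 3.91e-14), CDC6, a replication licensing factor, had −1.31 (adjusted p = 1.79e-13), MKI67, the Ki-67 antigen, had −1.20 (adjusted p = 6.89e-13), and CDK1, the mitotic kinase, had −1.25 (adjusted p = 2.83e-12). The 3 that did not pass were CCNB2, CDC20 and PLK1, with −0.10, −0.11 and −0.05. The part of cell cycle distribution in the kinesin values was not tested.

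The cargo partners of transport kinesins included lower and higher genes. Of 22 genes, 8 were lower, 6 were higher and 8 did not pass, against 25.1% lower and 24.5% higher among all genes tested. Their median log2 fold change was −0.03. KTN1 (kinectin), a membrane anchor of KIF5B, had −1.11 (adjusted p = 1.97e-12) and TRAK2, which links KIF5 to mitochondria, had −1.04 (adjusted p = 1.95e-10). PLEKHM2, which couples KIF5 to lysosomes, had 0.98 (adjusted p = 6.03e-11), and MAPK8IP1, a JNK scaffold that binds kinesin light chains, had 0.86 (adjusted p = 2.76e-08). KIF5B and these 4 partners therefore included both lower and higher genes. Of the light chains, KLC1, KLC2 and KLC3 were lower, with −0.26, −0.43 and −0.85, and KLC4 did not pass (−0.08, adjusted p = 0.398).

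For dynein and dynactin, the machinery that moves toward the minus end, 28 of 29 genes were tested, and 6 were lower, 12 were higher and 10 did not pass, against 25.1% lower and 24.5% higher among all genes. Their median log2 fold change was 0.06. HOOK3 and SPDL1, adaptors of dynein for endosomes and kinetochores, had −1.08 (adjusted p = 4.64e-11) and −0.96 (adjusted p = 9.14e-11). DYNLRB1, a dynein light chain, and BICD2, a dynein adaptor, had 0.81 (adjusted p = 4.17e-09) and 0.72 (adjusted p = 7.74e-09). DYNC1H1, the dynein heavy chain, had 0.05 (adjusted p = 0.576).

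An siRNA can also lower other RNAs whose 3′ UTR matches guide bases 2 to 8. The sites of the 3 BAP18 siRNAs were searched in the longest annotated 3′ UTR of 37 kinesins and of 13617 genes tested. None of the 12 mitotic kinesins held any of them. Their 3′ UTRs ran from 75 bases (KIF22) to 1891 (KIF14), and those of transport kinesins from 570 (KIF17) to 5016 (KIF1B). Sites were not counted per length, so a difference between classes cannot be read from them. The site of siRNA number 1 (AATCACA) was in KIF1B, KIF3C and KIF26B, 8.11% of kinesins against 14.1% of all genes. That of number 2 (AAGATTC) was in KIF1B, KIF21B, KIF5A, KIF13B and KIF27, 13.5% against 11.2%. That of number 3 (ACTCAAC) was in KIF5B, KIF1A and KIF13B, 8.11% against 6.85%. Of the 17 transport kinesins, 2 held the number 1 site (11.8%), 4 the number 2 site (23.5%) and 3 the number 3 site (17.6%). Because KIF5B was the abundant transport kinesin that fell, its site for number 3 (chr10:32010730-32010736, minus strand) is shown with its flanks and the site in capitals.
KIF5B site: cctgattctgtACTCAACaagtcttgatgg
The KIF5B site lies 801 bases after the stop codon and is followed by an A. The number 3 site in KIF1A (log2 fold change −0.29, adjusted p = 0.515) is also followed by an A. That in KIF13B (−0.63, adjusted p = 1.25e-07) is not. The flanks of the number 1 and number 2 sites were not examined, and which siRNA was used is not known. Of the genes with a site, KIF1B, KIF21B, KIF13B, KIF27 and KIF5B were lower, and KIF3C, KIF26B, KIF5A and KIF1A did not pass. Among all 37 kinesins tested, with or without a site, 25 were lower. The part of the siRNAs in these values was not tested.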

How the data were processed

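Poly(A) RNA of A549 cultures was sequenced 48 h after transfection with siCtrl or siBAP18 (3 libraries each, described as biological replicates), as strand-specific dUTP libraries with paired reads of 150 bases. The authors deposited counts, the whole-number reads per gene without normalization, for 35474 genes. They also deposited RPKM, the counts relative to exon length and to the total of the library, and these equaled values recomputed from the counts. The submitters' processing notes name hg38 and GRCm38. The aligner, the counter and the use of strand are not given in the sources used here, so reads of overlapping genes on opposite strands may be mixed. Exon positions are on GRCh38, and 39 of the 41 kinesins had the same span in GENCODE 29.

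Counts were analyzed in R 4.3.3 with edgeR 4.0.16. The filterByExpr function kept 20776 genes, which were normalized by TMM and tested by the quasi-likelihood method of edgeR, and p-values were adjusted over all of them by Benjamini and Hochberg's method. Standard errors were taken as absolute log2 fold change over the root of the F statistic. With 3 libraries a group, an exact permutation test cannot go below p = 0.1, so none was used. RPKM was used to compare levels between genes, and CPM are TMM-scaled. A count of 0 allows up to 3 counts, which covers counting error only. Of these steps, only the quasi-likelihood test was run on simulated counts. Far fewer genes changed there than passed here, and all of them by over 2-fold. The other steps were not simulated.

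The members, their classes and the partner lists were chosen with earlier results of these data known. Every member was named, and values of each library were given for members past 2-fold and for the 3 members of each class with the highest mean RPKM. KIF3A, KIF3B, KIF4A, KIF17 and KIF9 were added after their values were seen. In partner lists, up to 4 genes with the smallest adjusted p were named by rule. The kinesin-binding partners KIFAP3, PRC1, RACGAP1, AURKB, BIRC5, CDCA8, INCENP, KLC1 to KLC4 and DYNC1H1 were named after their values were seen. The same holds for the markers CCNB2, CDC20 and PLK1. Promoters came from RefSeq (GRCh38.p14) and 3′ UTRs from GENCODE 29, searched in Python 3.11.15 with pandas 2.3.3 and numpy 2.4.6. The sites of siRNA numbers 1 and 2 were searched after the other values had been seen. Plots were drawn with matplotlib 3.10.9. Alternatives were DESeq2 1.42.0, other scalings and filters, limma 3.58.1 on log2(RPKM + 1) and log2(RPKM + 0.1), a replicate block and leaving out each library. The replicate numbers paired no libraries: residuals of same-numbered libraries correlated with r of −0.0217, 0.0437 and −0.0011. Motor protein sequences were not analyzed here.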

Additional observations from a re-analysis of the deposited data

How the results depend on the processing

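The 12 mitotic kinesins were lower and the 4 kinesins that were higher stayed so under every alternative run, and 25 of the 29 kinesins past the test kept direction and call. The exceptions were KIF1B, KIF21B, KIF2A and KIF24, the last with an adjusted p of 0.0542 under limma on log2(RPKM + 1) without a filter. With limma on log2(RPKM + 1), with or without a filter, 2 kinesins instead of 7 fell by over 2-fold, and the mitotic median was −0.65 in both. These pseudocounts shrink changes of low genes. Under all 3 limma settings 3 other kinesins were lower instead of 5, but not the same genes. KIF2A passed in none of them. With a filter KIF26A was not tested, so its call was kept only where it was tested. Without a filter KIF26A was lower (adjusted p = 0.0397) and KIF24 did not pass. Leaving out each library gave 5 to 8 kinesins lower and 0 to 1 kinesins higher by over 2-fold. The count lower by over 2-fold was 6 under each other scaling and the DESeq2 Wald test. It was also 6 with at least 10 counts in every library and under limma on log2(RPKM + 0.1). Counting KIF2A as mitotic made the mitotic share 37.5% in siCtrl and 28.5% in siBAP18. KIF26B changed sign with DESeq2 size factors (0.0030), upper-quartile scaling (0.0050), total counts (0.0027) and the DESeq2 Wald test (0.0019), and lay from −0.28 to 0.18 when each library was left out. Over the same 6 refits KIF5C lay from −0.24 to 0.064 and KIF13A from −0.20 to 0.030, both above 0 without siBAP18 replicate 3 only. With the replicate block, 26 kinesins were lower instead of 25, KIF3B being the addition, and 4 were higher. No scaling moved the median of all genes past 0.0115. Having 3 libraries a group and low counts of KIF26B, KIF1A, KIF5C, KIF6 and KIF4B limited precision.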
